A study of Rattus norvegicus with 47 samples.

Results

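Complement factors and regulators were followed in the kidneys of rats on a high-fat diet as a set of 9 genes: C3, C2, Cfb, Cfi, C1s, C1r, Cd55, Cd59 and Serping1. The members were found by their symbols in the kidney mRNA table, where all 9 were present among 14747 genes. All 9 also had a mean of at least 5 normalized counts, the level needed to enter the tests, as did 13673 genes in all. RNA-seq was performed on kidney tissue of 16 male Wistar rats (Wistar Han in the methods of the study), each contributing 1 library: 8 HFD-fed rats (high-fat diet) and 8 SD-fed rats (standard diet). The rats were 7 weeks old at the start and were fed for 10 weeks, none carried a genetic modification, and the SD-fed rats were the controls. Each library held the RNA of a mixed piece of organ, so fewer cells of a type and less RNA per cell cannot be told apart. Glomerular lesions of the single rats stand in no sample label and were not analysed here.

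Complement is a cascade of plasma and tissue proteins that tags surfaces for removal and can open pores in membranes. The classical pathway begins when C1q binds and activates its proteases C1r and C1s, which cut C4 and C2 to build a C3 convertase. The alternative pathway builds another convertase from C3b and factor B (Cfb) and so amplifies any C3b already deposited. Inhibitors hold the cascade back at several levels: the serpin C1 inhibitor (Serping1) blocks C1r and C1s, factor I (Cfi) cleaves C3b, CD55 speeds the decay of the convertases and CD59 stops assembly of the membrane pore. The liver makes most circulating complement, but kidney cells transcribe some components themselves, and the glomerulus is a frequent site of complement deposition in renal disease.

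Both diets were found at each end of the main axis of variation among the 16 libraries. Normalized counts summed to 18482535 to 21078315 per library in the HFD group and to 17623718 to 22565849 in the SD group. The first principal component of the 13673 genes held 46.2% of the variance, and 5 rats lay at one end of it (HFD rats 1252, 1255 and 1274 and SD rats 1247 and 1248), between -78.27 and -54.3, while the other 11 rats lay between 1.39 and 75.65. HFD rat 1255 also stood alone on the second component (12.6% of the variance) at 73.91, against -31.26 to 26.9 in the other rats. In that rat the urothelial markers present in the table (4 of 8 listed, a list added after the data were seen) summed to 7844 normalized counts, against 11.19 to 420.1 in the other HFD-fed rats and 17.84 to 1438 in the SD-fed rats. Markers of hepatocytes (3 of 5 listed were present) summed to 4.716 to 100.7 normalized counts in the HFD group (100.7 in rat 1255) and 3.809 to 67.86 in the SD group, beside 91620 to 165900 in HFD-fed rats and 96340 to 158000 in SD-fed rats for the proximal tubule.

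By diet, none of the 9 members passed the thresholds of the study, which were applied here to another test than in the study. These were an adjusted p-value under 0.05 together with a change of more than 1 on the log2 scale in either direction. The test here was limma, a linear model fitted to every gene on log2 of the normalized count plus 1. It called 0 of 13673 genes (0%) at those thresholds and 0 by the adjusted p-value alone, while 593 genes (4.34%) had an unadjusted p-value under 0.05. With DESeq2 the study called Epha3, Atp12a, Robo3 and Sult4a1 by diet, none of them a member, and limma called none of these. By qPCR the study found Epha3 and Atp12a higher and Sult4a1 lower in HFD-fed rats, with no significant difference in Robo3. Of the members, 1 had an unadjusted p-value under 0.05, and that was C3, which was lower in HFD-fed rats. The log2 fold change of HFD over SD (log2FC) was below 0 in 5 of the 9 members, against 53.8% of all genes, and its median was -0.033 over the members and -0.022 over all genes. The median size of the log2 fold change, without its sign, was 0.25 over the members and 0.16 over all genes. The members were picked with earlier results of these data in view, so that the place of C3 among them is no independent evidence.

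**Figure D1:**
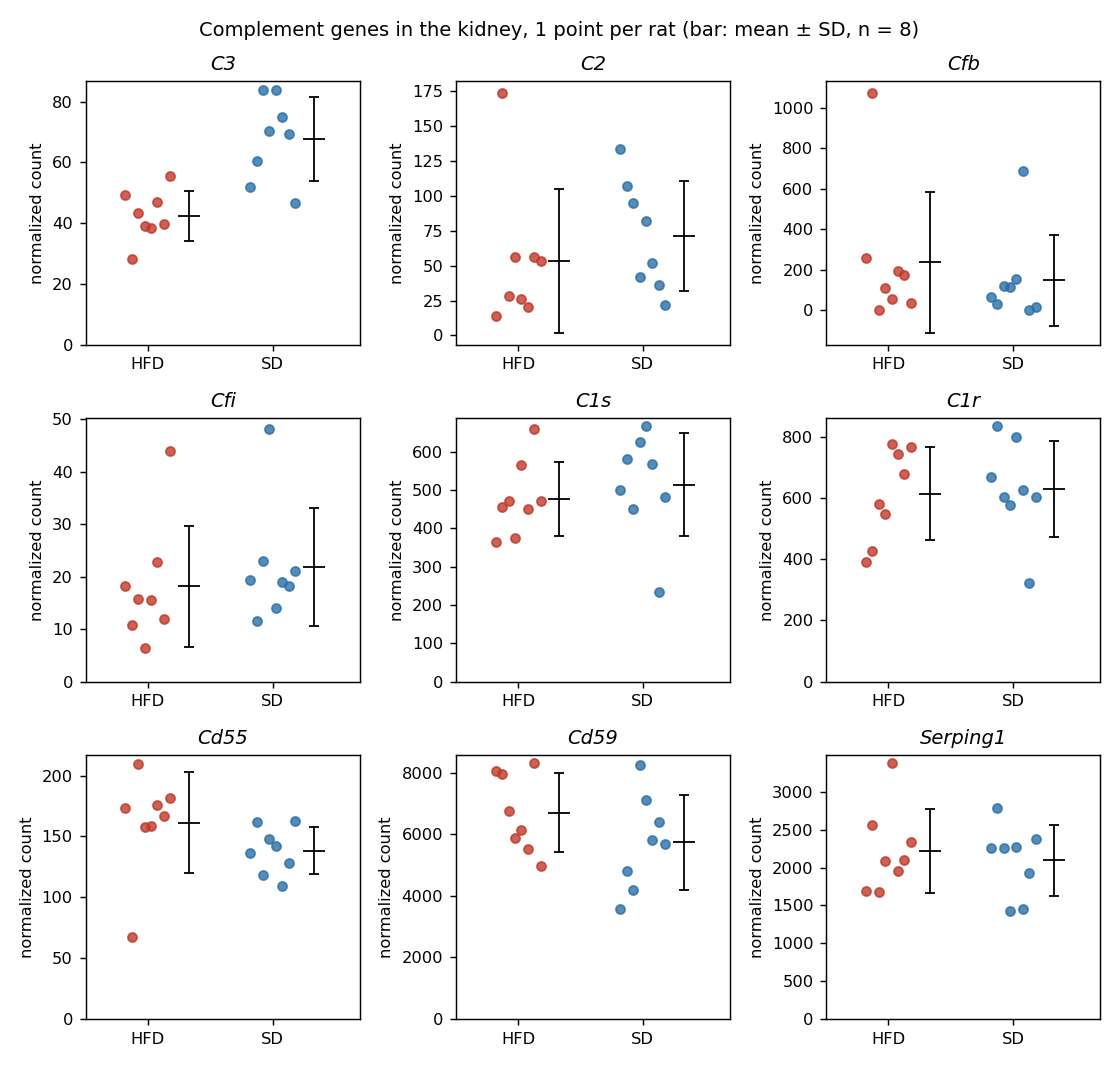
Normalized counts (vertical axes, linear, a separate scale for each gene) of the 9 complement genes in the kidney, with the HFD group at the left and the SD group at the right of each panel. Each point is 1 rat and the bar beside it the mean ± SD (n = 8). C3 stands at 28.23 to 55.42 in HFD-fed rats and 46.55 to 84.02 in SD-fed rats, while the other 8 genes overlap more widely. Single rats stand far from their group in several genes, among them C2, Cfb, Cfi, C1s, C1r and Cd55.

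C3, the protein on which all pathways converge, was the member with the largest diet difference for its error. The 8 HFD-fed rats had 28.23, 38.29, 38.92, 39.6, 43.42, 46.93, 49.27 and 55.42 normalized counts of C3 (rats 1255, 1267, 1259, 1274, 1256, 1271, 1252 and 1275), and the 8 SD-fed rats had 46.55, 51.97, 60.53, 69.44, 70.2, 75.13, 84.02 and 84.02 (rats 1251, 1244, 1245, 1250, 1247, 1249, 1246 and 1248). The groups overlapped between 46.55 and 55.42, with 5 HFD-fed rats below every SD-fed rat and 6 SD-fed rats above every HFD-fed rat. At least 5 HFD-fed rats lay below every SD-fed rat in 1.1% of the genes tested. C3 averaged 42.5 ± 8.25 normalized counts in HFD-fed rats and 67.7 ± 13.9 in SD-fed rats (SD, n = 8 each), with a log2FC of -0.66 (standard error, SE, 0.17, 95% interval -1.01 to -0.30). The exact permutation test over 12870 splits of the rats gave p = 0.00109 for C3 (two-sided). In limma the unadjusted p of C3 was 0.00116, the 13th smallest of 13673 genes, and the adjusted p was 0.918, so the difference did not pass the correction over all genes. Over 26 other fits the log2FC of C3 kept its sign and ran between -0.73 and -0.51, with adjusted p-values between 0.168 and 1.000. Without the 5 rats at one end of the first component it was -0.51, and without HFD rat 1255, the lowest in C3, it was -0.58.

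Markers of macrophages, which can transcribe C3 as well as C1q, were also measured in these libraries. Of 10 macrophage markers, 9 had a log2FC below 0 and 1 above (Mrc1, at 0.42, adjusted p = 0.918, limma), against 53.8% below 0 over all genes. Their median was -0.30 and 0 were called. Aif1 alone had an unadjusted p-value under 0.05 (limma), at a log2FC of -0.51 (adjusted p = 0.918), against 2.55% of all genes in that direction. The summed normalized counts of the 10 markers were 7771 to 16890 in HFD-fed rats and 10660 to 17410 in the SD group, with none of the markers at 0 throughout. Cd68, a lysosomal protein of macrophages, averaged 40.0 ± 12.6 normalized counts in HFD-fed rats and 50.1 ± 15.9 in SD-fed rats, a log2FC of -0.30 (adjusted p = 0.918, limma). Csf1r, the receptor that sustains macrophages, averaged 243 ± 58.4 in HFD-fed rats and 306 ± 96.9 in SD-fed rats, also -0.30 on the log2 scale (adjusted p = 0.918). By immunofluorescence the study saw macrophages positive for CD86 in HFD-fed rats only, a protein measure unlike these RNA values. The part of macrophage RNA in the C3 difference was not tested.

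The stretches upstream of C3 and C1r are shown because C3 had the largest difference for its error and C1r belonged to the closest pair of members. They come from RefSeq (build GRCr8, while the expression files were made on Rnor6.0), where all 9 members were matched by gene and a promoter window, 250 bases before to 50 after the start site, was given for 4 (C3, Cfi, C1r and Cd55). The C3 window lies at chr9:2201290-2201589 on the minus strand, and the C1r window at chr4:159098763-159099062 on the plus strand. Capitals mark matches to the motifs searched on both strands, and bases are counted back from the start site.
C3: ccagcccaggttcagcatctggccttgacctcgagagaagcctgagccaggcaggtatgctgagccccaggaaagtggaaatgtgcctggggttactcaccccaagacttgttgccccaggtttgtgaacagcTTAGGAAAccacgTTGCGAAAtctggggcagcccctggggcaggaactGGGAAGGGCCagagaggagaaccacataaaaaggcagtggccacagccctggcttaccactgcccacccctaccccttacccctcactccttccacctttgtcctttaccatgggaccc
C1r: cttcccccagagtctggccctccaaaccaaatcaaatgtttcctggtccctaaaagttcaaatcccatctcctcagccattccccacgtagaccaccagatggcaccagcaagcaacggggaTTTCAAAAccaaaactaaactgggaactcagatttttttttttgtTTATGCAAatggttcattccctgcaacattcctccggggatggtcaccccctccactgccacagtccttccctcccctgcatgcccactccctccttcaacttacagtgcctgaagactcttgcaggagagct
In C3 the match nearest to the start, at -69, fits the NF-kB pattern (GGGA, any 4 bases, then CC), and those at -117 and -104 fit the C/EBP pattern TTNNGNAA. The matches in C1r, at -128 and -83, are both to the C/EBP pattern, and no match overlaps another. Among 33469 promoter windows of the same length, 19.3% held the NF-kB pattern and 41.3% the C/EBP pattern. Cd55 held 1 NF-kB match at -76 and Cfi held none. The patterns of STAT factors (TTCNNNGAA, in 8.87% of all windows), of the interferon-stimulated response element (GAAA, any 2 bases, then GAAA, 3.92%) and of the TATA box (TATAAA, 14.2%) were found in none of the 4. A match is a run of letters and was not tested as a binding site.

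C2 and Cfb, the protease subunits of the classical and the alternative C3 convertase, lie next to each other on chromosome 20. Both varied more between rats than most genes. C2 ran from 13.62 to 173.9 normalized counts in HFD-fed rats (median 40.89) and from 21.66 to 133.6 in SD-fed rats (median 66.98). The highest value, in HFD rat 1255, was above every other rat, while the remaining 7 HFD-fed rats had at most 56.58. C2 averaged 53.5 ± 51.5 in HFD-fed rats and 71.3 ± 39.2 in SD-fed rats, with a log2FC of -0.61 (SE 0.47, 95% interval -1.59 to 0.38, adjusted p = 0.918 from limma, exact permutation p = 0.242). Leaving out 1 rat gave a log2FC of C2 between -0.91 (without HFD rat 1255) and -0.40 (without HFD rat 1252), and without HFD rat 1255 and SD rat 1250 together it was -1.01.

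Cfb was the most variable member. It ran from 0 to 1072 normalized counts in HFD-fed rats (median 142.0) and from 0 to 685.5 in SD-fed rats (median 90.55). It was listed at 0 in HFD rat 1256 and in SD rat 1250, and the highest values belonged to HFD rat 1255 and SD rat 1249. The SD of its log2 values over the 16 rats was 2.80, the 99.8th percentile of all genes, against 1.02 and percentile 91.3 for C2. The rats listed at 0 lie at the floor of this scale, so the spread of Cfb depends in part on the 1 added before the log. With 5 added instead, the SE of its log2FC was 0.999 in place of 1.31. The log2FC of Cfb was 0.67 with an SE of 1.31 (95% interval -2.08 to 3.43, adjusted p = 0.934, limma), so that neither direction nor size could be read at this spread. It was -0.14 without SD rat 1250, -0.16 without the 5 rats and -0.67 without HFD rat 1255 and SD rat 1250. How the reads of these neighbouring genes were divided during quantification was not tested.

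C1r and C1s, the proteases of the C1 complex, are also neighbours, on chromosome 4, and both overlapped fully between the diets. C1r ran from 389.8 to 774.4 normalized counts in HFD-fed rats (median 629.2) and from 323.6 to 834.7 in SD-fed rats (median 615.2). C1s ran from 365.1 to 658.2 in HFD-fed rats (median 463.5) and from 233.7 to 665.5 in SD-fed rats (median 534.2). In both genes the lowest value of all belonged to SD rat 1250. The log2FC was -0.033 for C1r (SE 0.19, 95% interval -0.44 to 0.37, adjusted p = 0.979) and -0.073 for C1s (SE 0.19, 95% interval -0.47 to 0.32, adjusted p = 0.945, both limma). The sign of C1r turned in 7 of the 26 other fits and that of C1s in 2, and neither has a direction in these data.

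Serping1, which encodes the inhibitor of both proteases, ran from 1671 to 3384 normalized counts in HFD-fed rats (median 2092) and from 1422 to 2789 in SD-fed rats (median 2254). HFD rat 1267 was above every other rat, and without it the log2FC of 0.085 (SE 0.16, 95% interval -0.26 to 0.43, adjusted p = 0.934, limma) was -0.0070. Serping1 had the smallest spread of the members, with an SD of log2 values of 0.33.

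Cfi, the protease that inactivates C3b, ran from 6.344 to 44.03 normalized counts in HFD-fed rats (median 15.65) and from 11.58 to 48.15 in SD-fed rats (median 19.2), with 1 rat of each diet (HFD rat 1275 and SD rat 1247) well above the rest of its group. The log2FC of Cfi was -0.32 (SE 0.34, 95% interval -1.03 to 0.38, adjusted p = 0.918 from limma, exact permutation p = 0.356). It was -0.53 without HFD rat 1275, -0.15 without either SD rat 1247 or HFD rat 1259, and -0.062 without the 5 rats.

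Both membrane regulators had a log2FC above 0, and neither passed the test. Cd55 ran from 67.3 to 209.5 normalized counts in HFD-fed rats (median 169.9) and from 109.0 to 162.5 in SD-fed rats (median 139.4). Of the HFD-fed rats, 5 lay above every SD-fed rat, while HFD rat 1255 lay below all of them. The share of all genes with such a separation in this direction was not counted, so how common it is remains unknown. The log2FC of Cd55 was 0.17 (SE 0.19, 95% interval -0.23 to 0.57, adjusted p = 0.918 from limma, exact permutation p = 0.423). Leaving out 1 rat gave 0.11 (without HFD rat 1256) to 0.34 (without HFD rat 1255), and the adjusted p over these fits was between 0.671 and 1.000.

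Cd59 (listed as Cd59b in RefSeq under the same gene number) ran from 4979 to 8338 normalized counts in HFD-fed rats (median 6452) and from 3583 to 8273 in SD-fed rats (median 5756). The groups overlapped over most of this range, with 3 SD-fed rats below every HFD-fed rat. Cd59 averaged 6706 ± 1285 in HFD-fed rats and 5740 ± 1541 in SD-fed rats, with a log2FC of 0.25 (SE 0.17, 95% interval -0.10 to 0.60, adjusted p = 0.918 from limma, exact permutation p = 0.171). The 5 rats at one end of the first component had 7116 to 8338 normalized counts of Cd59 and the other 11 rats had 3583 to 6755, so that these ranges did not meet. Of all genes tested, 4.81% lay higher in all 5 than in the other 11, and 11.2% lay lower in all 5. Egf, a thick ascending limb marker, separated the same rats (19600 to 34560 in the 5 and 11490 to 19330 in the others), but Slc12a1, a cotransporter of the same segment, overlapped (17550 to 70940 in the 5 and 14100 to 30610 in the others). Slc34a1, the phosphate transporter of the proximal tubule, ran from 7487 to 20250 in the 5 and from 19120 to 65710 in the others, and also overlapped. Egf was chosen after its values were seen. Cd59 is 1 of the genes from which the component was computed, and both diets stood at each end of it.

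**Figure D2:**
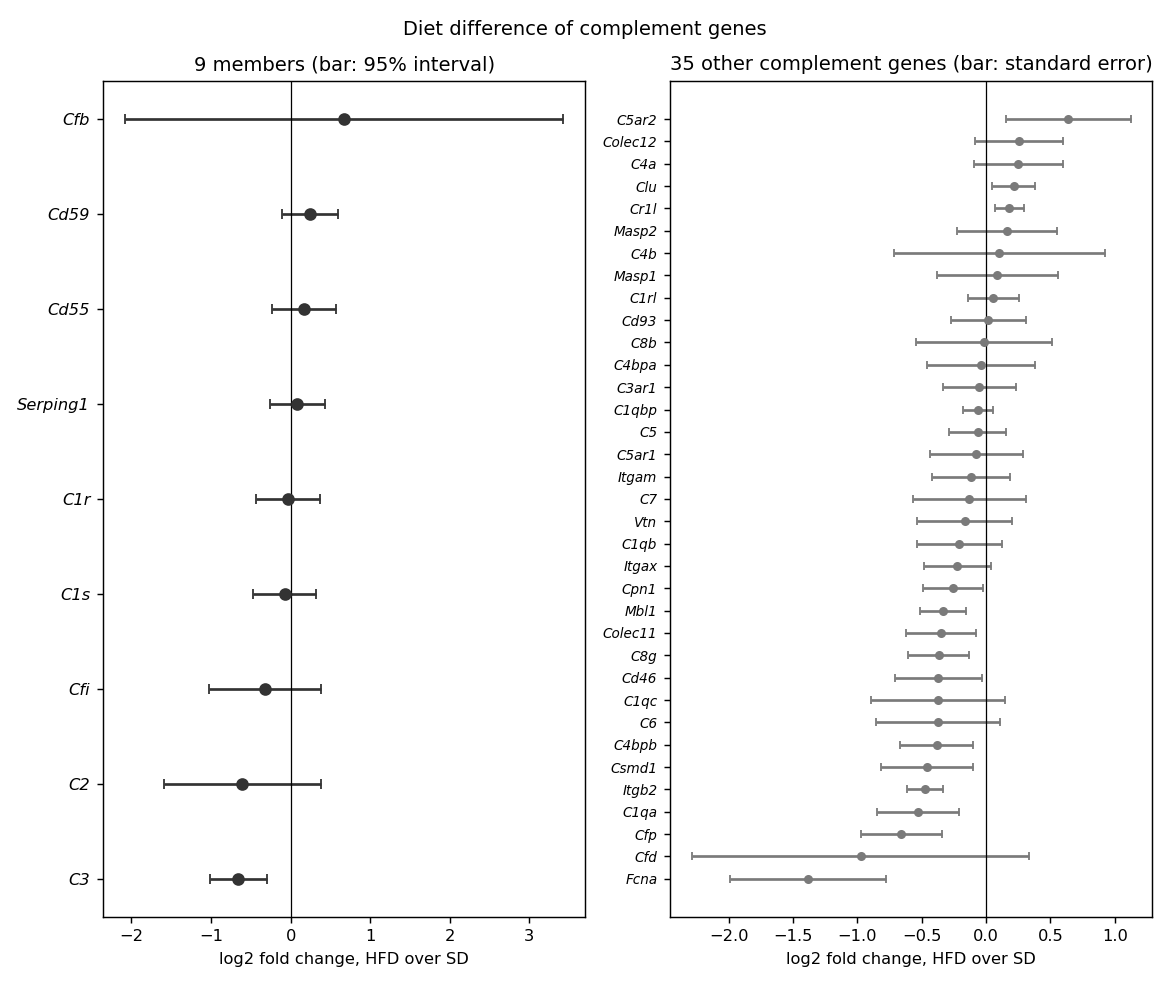
Log2 fold change (log2FC), HFD over SD (horizontal axes, limma, n = 8 rats each), of the 9 members with 95% intervals (left) and of 35 of the 36 other complement genes tested with standard errors (right). The interval of C3, -1.01 to -0.30, lies below 0, those of the other 8 members include 0, and 25 of the 35 other genes plotted lie below 0.

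The rest of the cascade gave no call either. Of 47 other complement genes listed from textbook membership, 38 were present and 36 tested, and 0 were called. Their log2FC values were above 0 in 11 and below 0 in 25, or 13 of 19 components and 12 of 17 regulators and receptors, against 53.8% below 0 over all genes. The median was -0.21 for the components, -0.076 for the regulators and receptors and -0.022 for all genes. Of the 36, 2 had an unadjusted p-value under 0.05, both lower in HFD-fed rats, against 2.55% of all genes in that direction.

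Itgb2, the beta chain that complement receptors CR3 and CR4 share with other leukocyte integrins, was 1 of these. It had 108.0 to 149.2 normalized counts in HFD-fed rats (median 123.8) and 116.0 to 209.1 in SD-fed rats (median 192.2), with SD rats 1249 and 1251 inside the range of the HFD group. The log2FC of Itgb2 was -0.47 (SE 0.14, adjusted p = 0.918, limma). Fcna, a ficolin that starts the lectin pathway, was the other, at 0 to 13.3 normalized counts in HFD-fed rats (median 5.02) and 2.8 to 43.35 in SD-fed rats (median 12.25). Its log2FC was -1.39 (SE 0.61, adjusted p = 0.918, limma), at levels where a few reads weigh heavily.

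Among the components that start the pathways, C1qa, a chain of C1q, averaged 248 ± 90.6 normalized counts in HFD-fed rats and 379 ± 187 in the SD group (log2FC -0.53, adjusted p = 0.918, limma). The other C1q chains had log2FC values of -0.21 (C1qb) and -0.37 (C1qc), which ran from -0.42 to -0.053 and from -0.69 to -0.11 when 1 rat was left out. Mbl1, a mannose-binding lectin, had -0.33 and Cfp, properdin, which stabilizes the alternative convertase, had -0.66 (both adjusted p = 0.918). Cfd, the protease that activates factor B and is abundant in fat, ran from 0 to 282.4 normalized counts in HFD-fed rats and from 1.502 to 517.6 in SD-fed rats, beside adipocyte marker sums of 2059 to 15800 in the HFD group (15800 in rat 1255, at most 3693 in the other 7) and 2301 to 12440 in the SD group. The part of fat cells in these values was not tested.

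Regulators and receptors outside the members gave no call. Cr1l, a rodent membrane regulator related to CR1, had a log2FC of 0.18, C4bpb, a chain of C4b-binding protein, had -0.38, and Clu, clusterin, which binds the terminal complex, had 0.21. The receptors for the fragments of C3 and C5 had -0.053 (C3ar1), -0.076 (C5ar1) and 0.64 (C5ar2, SE 0.48). None of these passed the test (adjusted p = 0.918 to 0.977, limma), and the signs of C3ar1 and C5ar1 turned in some of the other fits.

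**Figure D3:**
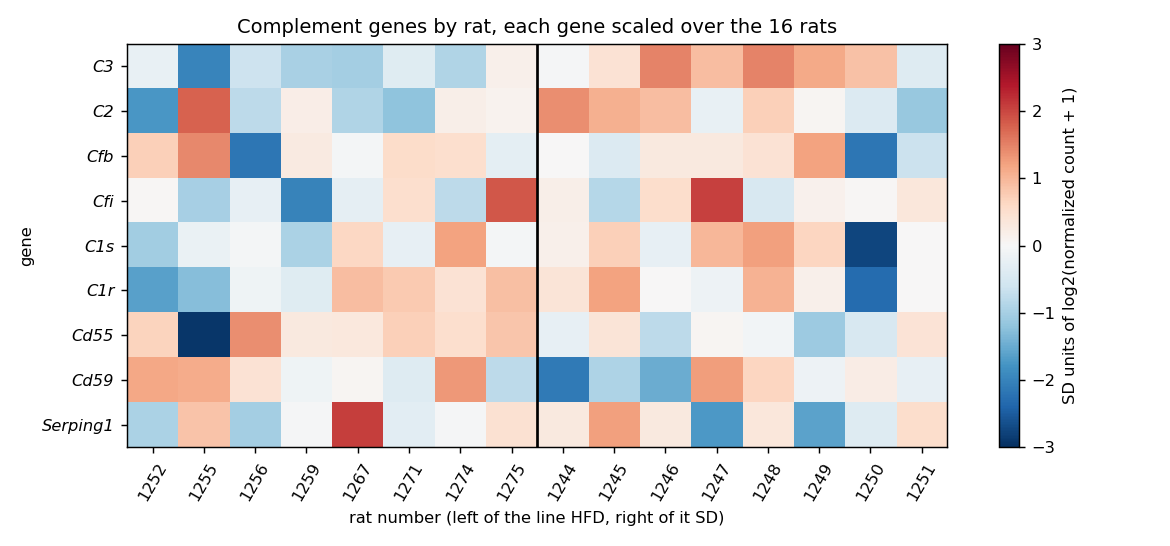
Each row is a complement gene and each column a rat, with the 8 HFD-fed rats left of the line and the 8 SD-fed rats right of it. Colour gives log2(normalized count + 1) in SD units from the gene's mean over the 16 rats (red higher, blue lower). HFD rat 1255 is at an extreme in 4 genes and SD rat 1250 is the lowest rat in C1s and C1r.

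Across the rats the members did not move as a block. HFD rat 1255 was the highest of 16 in C2 and Cfb and the lowest in C3 and Cd55, thus at an extreme in 4 of 9 members, and no other rat was at an extreme in more than 2. The share of all genes in which rat 1255 was the highest or the lowest was not counted. That rat also stood alone on the second component of all genes, so this count cannot be read as particular to the members. Pearson correlations over all 16 rats were computed for the 36 pairs of members, and ranged from -0.622 to 0.778 with a median of 0.073.

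The closest pair was C1s and C1r, with Pearson r = 0.778 (permutation p = 0.00069, adjusted over the 36 pairs 0.0248) and Spearman rho = 0.656 (permutation p = 0.00736, adjusted 0.265). The pair rested in part on SD rat 1250, without which r was 0.609 (permutation p = 0.0159, adjusted 0.192). Without the 2 rats farthest from the median of C1s it was 0.557 (permutation p = 0.0381, adjusted 0.343), and the relation no longer held after correction. Within diets r was 0.607 in HFD-fed rats (exact permutation p = 0.112, adjusted 0.669) and 0.898 in SD-fed rats (exact permutation p = 0.018, adjusted 0.571). Without the 5 rats at one end of the first component r was 0.896 (11 rats, permutation p = 0.00273, adjusted 0.0583).

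The value of C3 and Cd55 turned on a single rat. Over 16 rats their r was 0.045 (rho -0.306, permutation p = 0.87 and 0.249, adjusted 0.894 and 0.651), and without HFD rat 1255, the lowest in both, it was -0.687 (rho -0.586, permutation p = 0.0043 and 0.0242, adjusted 0.0774 and 0.291). Within the HFD group, rat 1255 included, it was 0.823 (exact permutation p = 0.022, adjusted 0.581), and within the SD group -0.595 (exact permutation p = 0.122, adjusted 0.723). C2 and Cd55 had r = -0.622 (rho -0.565, permutation p = 0.0072 and 0.0253, adjusted 0.13 and 0.453), and -0.464 without HFD rat 1255 (permutation p = 0.0814, adjusted 0.488). Within diets it was -0.77 in HFD-fed rats (exact permutation p = 0.0413, adjusted 0.581) and -0.152 in SD-fed rats (exact permutation p = 0.713, adjusted 0.918). C2 and Cd59 had r = -0.323 (rho -0.244, permutation p = 0.222 and 0.36, adjusted 0.667 and 0.74), with 0.153 in HFD-fed rats (exact permutation p = 0.727, adjusted 0.829) and -0.607 in SD-fed rats (exact permutation p = 0.113, adjusted 0.723). Over the 11 rats outside the 5, r of C2 and Cd59 was -0.789 (rho -0.591, permutation p = 0.00324 and 0.0618, adjusted 0.0583 and 0.646). The neighbours C2 and Cfb had r = 0.284 (rho 0.143, permutation p = 0.288 and 0.592, adjusted 0.734 and 0.845). None of the 36 pairs passed the correction by Spearman rho, and 1 passed by Pearson r, where 2 had an unadjusted permutation p under 0.05.

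**Figure D4:**
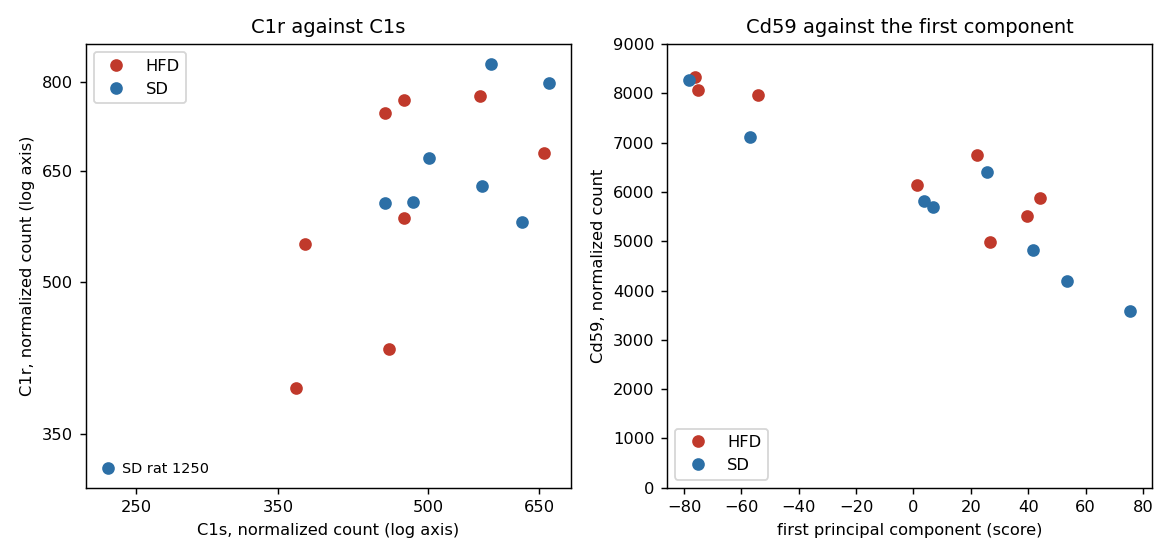
Left, C1r against C1s (normalized counts, log axes), and right, Cd59 (normalized count) against the score on the first principal component of all genes, 1 point per rat (HFD red, SD blue). SD rat 1250 is the lowest in both C1s and C1r, and the 5 rats below -54 on the component hold the 5 highest values of Cd59, 7116 to 8338.

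By similarity of pattern over the 16 rats, the genes closest to C3 among all that passed the level filter were Col28a1 (r = 0.813), RT1-Ba, an MHC class II chain (0.794), Apln (0.767), Gstm3l (0.752) and Catip (0.743). The most opposed were March3 (-0.829), Timm29 (-0.777), Plscr1 (-0.757), Spag5 (-0.729) and Ergic1 (-0.706). For the mean of the standardized values of the 9 members, the closest were Fli1 (0.885), Cped1 (0.864), Cd4 (0.86), Cacna2d1 (0.854) and Sfrp1 (0.851), and the most opposed Aagab (-0.807), Arf1 (-0.803), Aqp8 (-0.766), Tdrp (-0.763) and Ubap1 (-0.746). These are the extremes over all genes tested, in libraries that share scaling and the 5 rats described, and are given without a test. Without the 5 rats Col28a1 stood at 0.815 with C3 and Ergic1 at -0.388.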

How the data were processed

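Kidney mRNA was measured in 16 rats. The signal values are the authors' normalized counts per gene, deposited after adapter trimming (Cutadapt), quantification with Salmon on Rnor6.0 and processing in DESeq2 (1.24.0, per the submitters' processing notes). No common step was found in them (at most 31.3% of the values under 20 in a library lay within 0.05 of a step from a whole multiple), so reads were not recovered and depth per gene is unknown. The authors' mean, fold change and p-value columns were not used, nor were the small RNA tables of kidney and urine.

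Groups were taken from the sample labels. Genes with a mean of at least 5 were compared with limma (3.58.1, trended variance, R 4.3.3) on log2 of the normalized count plus 1, which understates changes of low genes, with Benjamini-Hochberg adjustment over all of them. Intervals are 95%. Exact permutation tests ran over 12870 splits, and pair correlations used 100000 permutations (exact within a diet), all two-sided. Each library is a separate rat.

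Members and gene lists were chosen with earlier results of these data known. The text names all members, of each other list up to 4 genes with the smallest p-values and the first 2 cell type markers, the 5 genes most and least alike C3 and the members' mean, Actb and Gapdh. C1qb, C1qc, Cfd, Clu, C3ar1, C5ar1, Mrc1, Egf and the urothelial list were named after their values were seen. Alternatives were pseudocounts of 0.5 and 5, no filter, a mean of at least 50, TMM factors, equal totals, robust variance, array weights and leaving out rats. Of the complement lists, 1 gene is counted but not reported here. The fit was tested on simulated data with independent noise in each gene and rat. These data lacked the main axis shared by the real libraries, so that test does not show how the fit behaves with it.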

Additional observations from a re-analysis of the deposited data

Results flagged for a closer look

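In each diet group the highest and the lowest rat of each member were compared with the rest on the log2 scale (Dixon's ratio, the gap to the nearest rat divided by the range of the group, held against its 95% critical value for 8 rats). Of 18 groups 3 passed, and chance passes about 1 in 20. SD rat 1250, at 233.7 normalized counts, was far below the other SD-fed rats in C1s (0.627), and at 323.6 in C1r (0.609). HFD rat 1255, at 67.3, was far below the other HFD-fed rats in Cd55 (0.747). The urothelial marker Upk3a was at 1919 normalized counts in HFD rat 1255 and at 10.97 in SD rat 1250, and its part in these values was not tested.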

How the results depend on the processing

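No paired analysis was possible because the rats on the 2 diets share no numbers. The members and the other complement genes had 0 calls in every alternative run. Over all genes the calls were 6 with array weights, 3 without the 5 rats and 1 without SD rat 1250 (range 0 to 1 over fits without 1 rat), against 0 otherwise. The sign of the log2 fold change turned for C1r with equal totals (0.036), array weights (0.12) and without the 5 rats (0.20), for C1s with array weights (0.027) and without the 5 rats (0.038), for Cfb without the 5 rats (-0.16) and without HFD rat 1255 and SD rat 1250 (-0.67, chosen after seeing the data), for C3ar1 with equal totals (0.0065), array weights (0.050) and without the 5 rats (0.022), and for C5ar1 (0.030) without the 5 rats. Leaving out 1 rat gave ranges of -0.16 to 0.055 for C1r, -0.23 to -0.011 for C1s, -0.14 to 1.58 for Cfb, -0.0070 to 0.15 for Serping1, -0.17 to 0.069 for C3ar1, -0.24 to 0.13 for C5ar1 and -0.18 to 0.080 for Gapdh. With their sign kept, C2 had -0.91 to -0.40, Cfi -0.53 to -0.15, Cd55 0.11 to 0.34, Cd59 0.16 to 0.33, C1qb -0.42 to -0.053, C1qc -0.69 to -0.11, Cfd -1.57 to -0.40, C4bpb -0.51 to -0.24, C5ar2 0.41 to 0.97, Clu 0.10 to 0.27, Cr1l 0.12 to 0.22, Il1b -0.43 to -0.12, Psmb9 -0.47 to -0.19 and Gbp2 -0.62 to -0.30. Gapdh had 0.0089 with equal totals, 0.074 with array weights, 0.17 without the 5 rats and 0.14 without the rats 1255 and 1250. The causes were not tested. The log2 fold changes of C3, C2, Cd55, Cd59 and, where it was tested, Cfi kept their sign in all of these fits. Cfi could not be fitted with a mean of at least 50, where fewer genes were tested.

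The number of pairs passing by Pearson r was 0 in HFD-fed rats, in SD-fed rats, without the 5 rats, without the 2 farthest rats and without SD rat 1250, in place of 1. For C1s and C1r the coefficients in those settings were 0.607, 0.898, 0.896, 0.557 and 0.609, with 0.778 over 16 rats. With 8 rats a diet, genes that vary as Cfb does gave intervals too wide to read.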

Other observations

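Lists of inflammatory and interferon response genes held no call, with 1 gene (Stat3) and 0 genes at an unadjusted p under 0.05. Stat3, the transcription factor of the acute phase response, had 2082 to 3113 normalized counts in HFD-fed rats (median 2665) and 2016 to 2422 in SD-fed rats (median 2126), 0.23 higher on the log2 scale (SE 0.09, adjusted p = 0.918, limma). Of 9 inflammatory genes tested, 5 lay above 0 and 4 below, with a median of 0.075, and Il1b, the cytokine interleukin-1 beta, had -0.30. Of 14 interferon response genes, 6 lay above 0 and 8 below, with a median of -0.12. Among these Psmb9, an immunoproteasome subunit, had -0.33 and Gbp2, a guanylate-binding protein, -0.46 (both adjusted p = 0.918). The reference genes Actb and Gapdh had log2 fold changes of 0.36 and -0.060 (adjusted p = 0.918 and 0.971, limma).

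The other marker lists held 0 calls each. The median log2 fold change was -0.11 over 6 proximal tubule markers, -0.070 over 4 of the thick ascending limb, 0.033 over 4 of the distal nephron and collecting duct, -0.089 over 5 podocyte markers, 0.11 over 7 mesangial and fibroblast markers, -0.067 over 4 endothelial markers, -0.65 over 5 adipocyte markers, -0.56 over 2 hepatocyte markers, -0.048 over 5 red blood cell markers and -0.35 over 4 urothelial markers.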
